A study of Mus musculus with 19 samples.

Results

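Chromosome 15 of the mouse carries 438 genes that were expressed at a mean level (CPM, the counts of a gene scaled to a fixed library total) of at least 5 over 10 liver tumours, out of 10534 genes that passed the same filter genome-wide and 39179 gene identifiers in all. The members were the genes that GENCODE places on this chromosome (build GRCm39), ordered by their start, from Selenop at 3298029 to Nckap1l at 103362221. Before the filter 1069 identifiers lay on the chromosome, and 863 of them had at least 1 count. Of the 438 members, 422 were protein-coding, 9 were processed pseudogenes and 3 were long non-coding RNAs. The weakest members were Kdelr3 (mean 5.06 CPM), which retrieves proteins to the endoplasmic reticulum, and Osmr (5.08 CPM), the oncostatin M receptor. Just below the filter lay Zfat (4.93 CPM) and Cers5 (4.85 CPM). The chromosome was chosen by the deviations of its genes in these same 10 tumours, so those deviations and the correlations among members describe the choice and carry no test.

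Chromosome 15 is home to mouse Myc, which encodes a transcription factor that binds DNA as a dimer with Max and drives growth and ribosome production. Liver cancers often gain or lose whole chromosomes or arms, and the RNA of many genes on such a chromosome rises or falls with the number of gene copies. DNA was not measured in the files used here. The chromosome also holds genes of general cell upkeep, such as a translation factor (Eif4b) and a chaperonin subunit (Cct5), genes of liver metabolism, such as Dpys of pyrimidine breakdown, and genes of immune cells, such as the cytokine receptor subunit Csf2rb.

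All animals were male and carried Ctnnb1tm1Mmt on 1 allele, which yields stabilised β-catenin once Cre removes its floxed exon, and Gt(ROSA)26Sortm1(MYC)Djmy on both alleles, a human MYC transgene at the ROSA26 locus that is silent until Cre acts. Cre came from the vector AAV8.TBG.PI.Cre.rBG, whose TBG promoter is active in hepatocytes, at 640000000 genome copies per mouse. These alleles and this dose were shared by the 13 samples labelled as tumours and the 3 control livers, while 3 further control livers received 200000000000 genome copies per mouse. Per the study's methods, adult mice were injected and tumours were taken at the endpoint. Only tumours 04 to 13 could be matched to columns of the count table, and control livers were not analysed here. The match assumes that the number in a sample title is the library number, which the labels do not state. Each tumour is 1 library. The transgene was not counted separately and a gene count does not show the removal of an exon, so neither allele could be checked in these data.

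Total counts per tumour ranged from 11687034 to 36964427, and 3 counts corresponded to 0.0812 to 0.257 CPM. The median over members of the lowest count in any tumour was 440.5, and 2 members, Adcy8 and C9, had fewer than 3 counts in some tumour. The tissue label held: all 8 hepatocyte markers were detected in every tumour, with a summed level of 32272 to 48934 CPM. Summed levels of markers of other cells varied more. They were 111 to 320 CPM for 8 macrophage genes and 3.38 to 19.3 CPM for 8 lymphocyte genes. Endothelial genes (8) summed to 65.2 to 412 CPM, stromal genes (8) to 237 to 2015 CPM and bile duct genes (6) to 14.4 to 162 CPM. In mean log2 CPM the hepatocyte genes also varied, from 8.78 in tumour 05 to 10.8 in tumour 12, beside -1.81 to 0.234 for the lymphocyte genes. Genes of short RNAs (2 detected of 6) summed to 58.8, 45.1 and 77.4 CPM in tumours 05, 06 and 07, and to at most 6.44 CPM in the others. Blood genes (5 detected of 5) ranged from 107 CPM in tumour 13 to 5729 CPM in tumour 07. Of these lists, 1 macrophage, 2 lymphocyte and 1 bile duct gene were at 0 counts in some tumour. The summary line of alignments that were not unique held 45.4% to 57.9% of the sum of each column. This is not a share of reads if a read with several alignments entered that line more than once. In such bulk tissue, fewer cells of a type and less RNA per cell cannot be told apart.

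Levels are given in CPM of the library total, and log2 CPM values are scaled by TMM, which adjusts for differences in library composition. The deviation of a gene in a tumour was its log2 CPM minus the median of the other 9 tumours, and the chromosome's value was the median deviation over the 438 members. With 10 tumours, this definition places 5 tumours above and 5 below 0 for every gene. The chromosome 15 median was 0.34 in tumour 04, 0.18 in tumour 05, -0.23 in tumour 06, -0.03 in tumour 07, 0.08 in tumour 08, -0.28 in tumour 09, 0.13 in tumour 10, 0.22 in tumour 11, -0.28 in tumour 12 and -0.23 in tumour 13. Tumours 04 and 11 thus stood at least 0.2 log2 units above the others, tumours 06, 09, 12 and 13 at least 0.2 below, and the other 4 between. Tumours 11 and 13 lay near this limit, with 0.18 without tumour 09 in the reference and -0.17 without tumour 04. Without TMM, tumours 09 (-0.11), 13 (-0.13) and 11 (0.197) no longer reached it. With TMM, the widest gap between neighbouring values, 0.20, separated the 4 low tumours from the remaining 6. Without TMM, tumour 07 stood at -0.15, below tumours 09 and 13, so this separation did not hold. Over all 10534 genes the median deviation of a tumour stayed between -0.04 and 0.02.

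**Figure D1:**
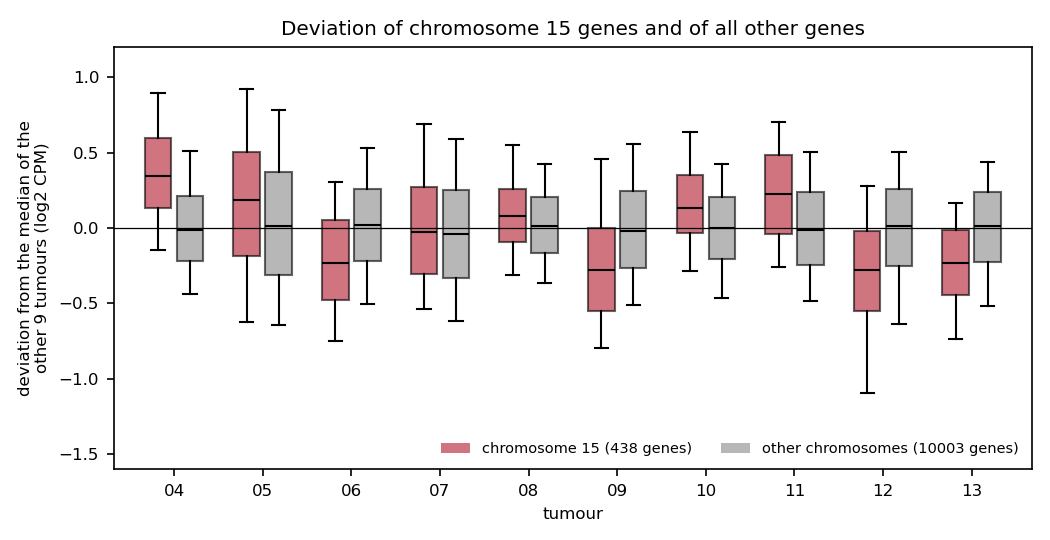
Deviation in log2 CPM from the median of the other 9 tumours, by tumour. Red marks the 438 chromosome 15 genes and grey the 10003 genes placed elsewhere in the genome. Boxes span the quartiles with the median as a line, and whiskers reach the 10th and 90th percentiles. The red median is 0.34 in tumour 04 and -0.28 in tumours 09 and 12, while the grey medians stay near 0.

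The shift involved most members rather than a few extreme ones. In tumour 04, 365 of 438 members (83.3%) lay above 0, against 49.8% of all genes. In tumour 12, 106 members (24.2%) lay above 0, against 50.2% of all genes, and in tumour 13 these shares were 23.7% and 50.4%. They were 28.5% and 51.2% in tumour 06, and 25.1% and 47.1% in tumour 09. On the high side they were 71.2% and 49.6% in tumour 11, 69.6% and 51% in tumour 10, 64.8% and 51.7% in tumour 05, and 62.8% and 52.6% in tumour 08. Tumour 07 had 46.6% of members above 0, against 46.4% of all genes. Most single genes moved little: 113 members (25.8%) were at least 1.5-fold higher in tumour 04, against a background of 8.82% of all genes. In tumour 11, 76 members (17.4%) passed this fold, against 7.72%. In tumour 05 the count was 89 (20.3%), but 15.7% of all genes were that much higher in this tumour. Downward, 81 members (18.5%) were at least 1.5-fold lower in tumour 06 against 8.54% of all genes, 100 (22.8%) in tumour 09 against 8.37%, 102 (23.3%) in tumour 12 against 11.5% and 73 (16.7%) in tumour 13 against 8.48%. Tumour 10 had 52 members (11.9%) that much higher against 5.27%, and tumour 08 had 40 (9.13%) against 5.9%. Tumour 07 was near the background in both directions, with 55 members (12.6%) higher against 10.3% and 41 (9.36%) lower against 11%. These values were part of what chose the chromosome.

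The widest contrast between a pair of tumours was that of tumour 04 with tumour 09. The median member was 0.53 log2 units higher in tumour 04, which is 1.45-fold, and 377 members (86.1%) were higher there. Of all genes, 51.2% were higher in tumour 04 in this pair. Across the 45 pairs of tumours the smallest difference in the median over members was 0.02.

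Most tumours had block medians of 1 sign along the chromosome, but of uneven size. In 14 consecutive blocks of 30 genes (48 in the last), tumours 04, 05 and 10 had a median above 0 in 14 of 14 blocks, and tumours 06, 12 and 13 below 0 in 14 of 14. Tumour 09 was below 0 in 13 blocks, tumours 08 and 11 were above 0 in 13, and tumour 07 was mixed, with 4 above and 10 below. Block medians of tumour 04 ranged from 0.23 in the first block to 0.53 in the fifth, which runs from 59186869 to 74847454 and contains Myc. The fifth block was also the highest of tumour 05 (0.42) and the lowest of tumour 12 (-0.51) and of tumour 07 (-0.24). In tumour 11 the first 5 blocks lay between -0.002 and 0.18, the sixth to eighth were 0.30, 0.42 and 0.45, and the eighth, from 78209952 to 79553340, was the highest, and in tumours 06 and 09 the lowest was the eleventh (-0.32 and -0.45), from 83457648 to 89065211.

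**Figure D2:**
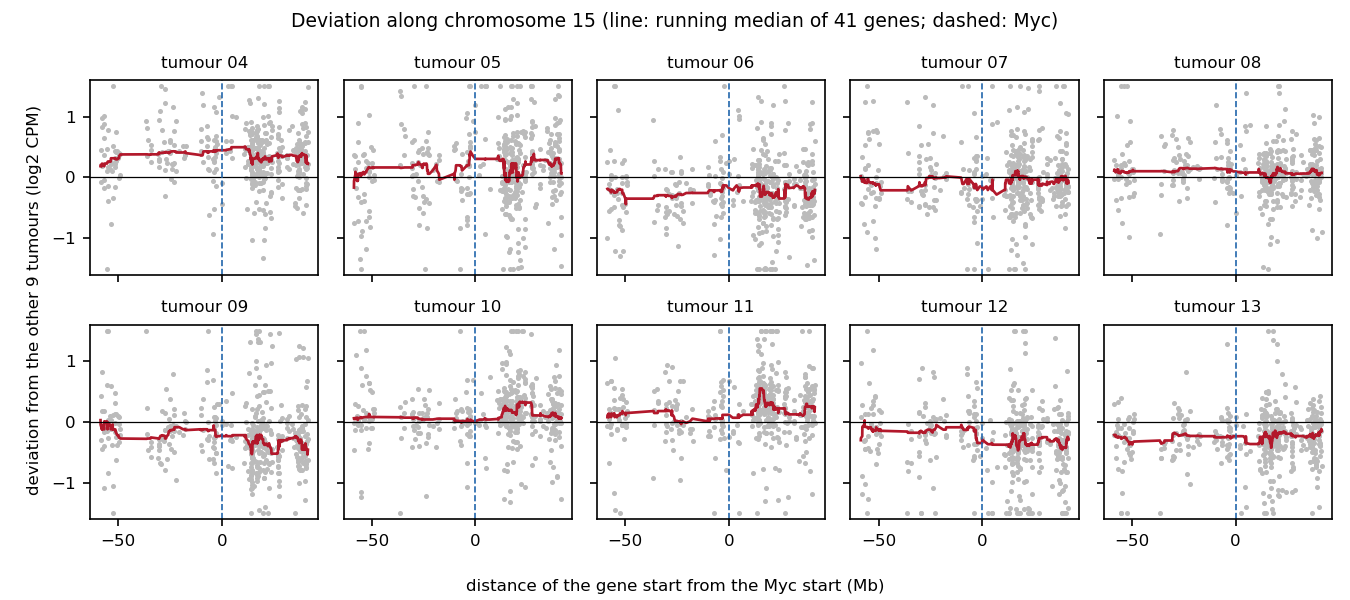
Deviation (log2 CPM) of each chromosome 15 gene (grey points, drawn at 1.5 or -1.5 where larger) against the distance of its start from that of Myc (Mb), by tumour, with the running median of 41 genes (red) and Myc (dashed). The red line lies above 0 along nearly all of the chromosome in tumour 04 and below 0 along all or nearly all of it in tumours 06, 09, 12 and 13.

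On the 2 sides of Myc, 125 genes before it and 312 after it, the median had the same sign in all 10 tumours. Tumour 04 stood at 0.38 before and 0.34 after Myc, and tumour 13 at -0.23 on both sides. The sides were less even in tumour 11 (0.08 before, 0.28 after), tumour 09 (-0.13 and -0.35) and tumour 12 (-0.13 and -0.33). Gene make-up differs along the chromosome, and short and long genes of other chromosomes also deviated in these tumours, for example by -0.08 and 0.04 in tumour 09. Each member was therefore also set against genes of other chromosomes in the same class of level, gene span and transcript GC content, each cut into 3 classes of equal size, with at least 173 genes in a combination, an adjustment added after the data were seen. The sides of tumour 11 then were 0.14 and 0.25, those of tumour 09 -0.17 and -0.23, and those of tumour 12 -0.20 and -0.27. With this adjustment the medians of tumours 04, 10 and 11 were above 0 in 14 of 14 blocks, and those of tumours 06, 09, 12 and 13 below 0 in 14 of 14. Tumour 05 was then above 0 in 12 blocks and below in 2, and tumour 07 had opposite signs on the sides of Myc (-0.03 and 0.03).

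The shifted tumours kept their direction at each level of expression, but not the size. Members were cut into 3 classes of 146 by mean level, up to 26.5 CPM, up to 76.1 CPM and above. From the weakest to the strongest class the medians were 0.31, 0.34 and 0.38 in tumour 04, 0.16, 0.19 and 0.30 in tumour 11, -0.21, -0.20 (-0.196) and -0.28 in tumour 06, -0.14, -0.31 and -0.37 in tumour 09, -0.33, -0.23 and -0.28 in tumour 12, and -0.24, -0.18 and -0.26 in tumour 13. Tumours 09 and 11 thus missed 0.2 among the weakest members, and tumours 06, 11 and 13 in the middle class. Protein-coding members had 0.35 in tumour 04 and -0.29 in tumour 12. The 16 members of other gene types went another way, with -0.09 in tumour 04 and 0.13 in tumour 12, and shared the sign of the chromosome in 4 of 10 tumours. Most of these are pseudogenes, whose reads can be hard to tell from those of their parent genes elsewhere.

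On the other 19 chromosomes examined (18 autosomes and X) the medians varied less. The SD over tumours of the chromosome median was 0.23 for chromosome 15 and 0.06 to 0.16 for the others, of which chromosome 10 was highest. Chromosome 15 passed 0.2 in 6 tumours, each other chromosome in 0 to 2. Of the 20 chromosomes, chromosome 15 was the highest in tumour 04 and the lowest in tumours 06, 09 and 12. It was not the extreme one in the other shifted tumours. In tumour 13 chromosomes 10 (-0.36) and 8 (-0.235, beside -0.230 for chromosome 15) were lower, and chromosomes 11 (0.27) and 1 (0.26) stood above, and in tumour 11 chromosomes 17 (0.30), X (0.29), 14 (0.23) and 10 (0.23) were higher than chromosome 15.

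**Figure D3:**
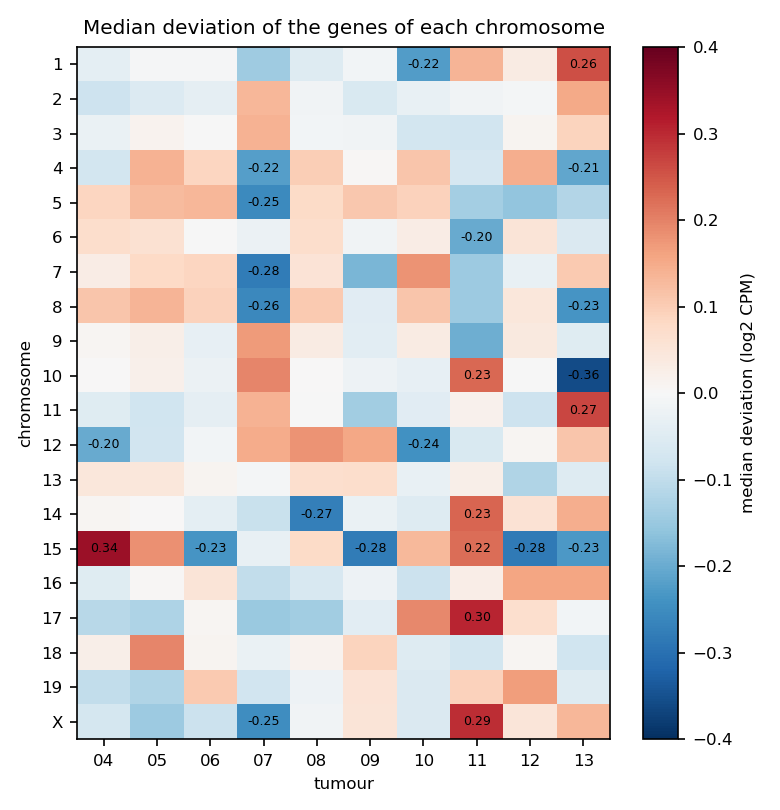
Median deviation (log2 CPM, colour) of the genes of each chromosome (rows) in each tumour (columns), with values printed where they are at least 0.2 from 0. Chromosome 15 has 6 such values, and every other chromosome has at most 2.

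Members also varied more than genes elsewhere. The median SD of a member's log2 CPM over tumours was 0.38, and 0.28 to 0.33 on the other chromosomes. Once the tumour's chromosome 15 median was taken off, the members' value was 0.30. No such median was taken off for the other chromosomes, so their values are not the like of this one. The median correlation between pairs of members over the 10 tumours was 0.29, against -0.003 between a member and a gene of another chromosome and 0.04 to 0.21 among genes of each other chromosome, of which chromosome 8 was highest. These points share libraries and scaling, and the values are descriptions.

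How closely a member followed the chromosome was described by Pearson's r between its log2 CPM and the median deviation of the other members, over 10 tumours. It was above 0 for 397 members (90.6%) and above 0.6 for 209 (47.7%). Set against the same chromosome 15 median, 49.9% and 4.83% of genes on other chromosomes passed these levels. The median r was 0.58. A member shared the sign of the chromosome 15 median in at least 8 tumours in 240 cases (54.8%, against 12.4% of genes elsewhere). It did so in all 10 tumours in 47 cases. Genes elsewhere were not set against the median of their own chromosome.

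The closest follower was Tmem184b, a membrane protein gene (chr15:79243507-79287778, minus strand, r = 0.98). Its lowest level was 92.7 CPM in tumour 12, its median 128 CPM and its highest 162 CPM in tumour 04. Tumours 06, 09, 12 and 13 held its 4 lowest deviations, from -0.36 to -0.58. Cct5, a subunit of the chaperonin that folds actin and tubulin (chr15:31588834-31601959, minus strand, r = 0.95), spanned a narrower range, from 499 CPM in tumour 06 over a median of 567 CPM to 707 CPM in tumour 04.

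Dpys, the dihydropyrimidinase of pyrimidine breakdown (chr15:39631883-39720866, minus strand, r = 0.95), spanned more than the chromosome did. Its lowest level was 141 CPM in tumour 13, its median 228 CPM and its highest 397 CPM in tumour 04, a 2.81-fold range. Its deviations reached 0.93 in tumour 04 and -1.01 in tumour 13. Plxnb2, a semaphorin receptor (chr15:89039749-89065211, minus strand, r = 0.94), rested at 363 CPM in tumour 09, with a median of 456 CPM and a highest level of 666 CPM in tumour 04. Cox14, an assembly factor of cytochrome c oxidase (chr15:99623480-99628220, plus strand, r = 0.94), ranged from 46.1 CPM in tumour 06 to 75.7 CPM in tumour 11. Together these 5 genes lie from 30.3 Mb before Myc to 37.8 Mb after it. Of the 5, all but Cct5 had the sign of the chromosome in every tumour.

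**Figure D4:**
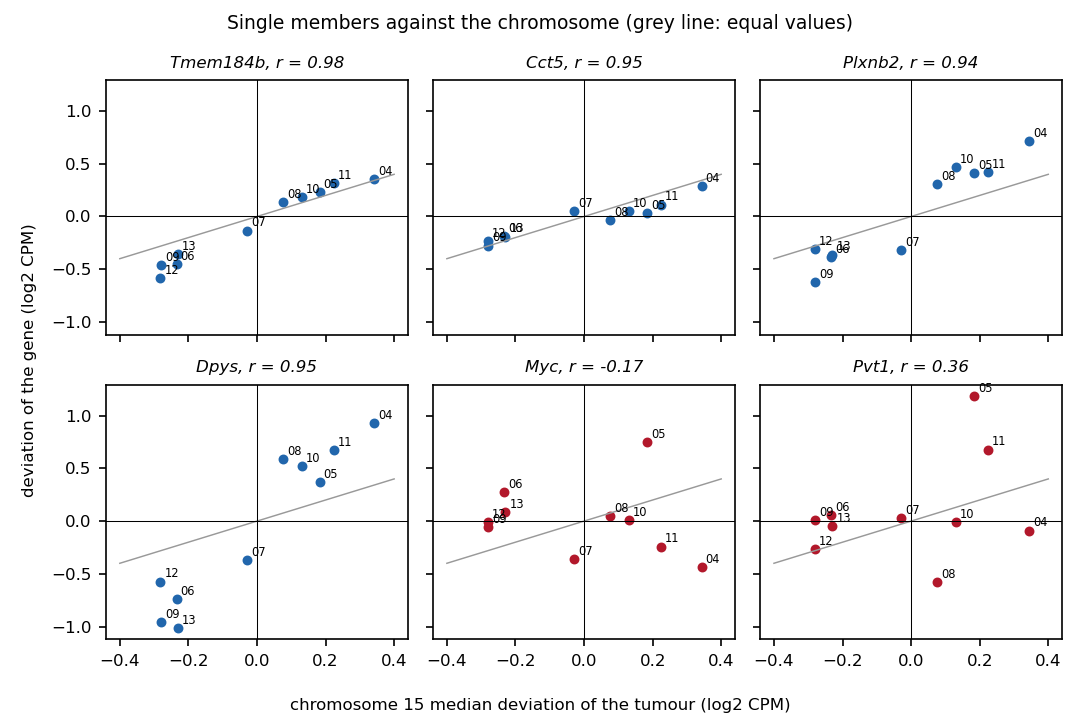
Deviation (log2 CPM) of 6 members in each tumour against the chromosome 15 median deviation of that tumour, with tumours labelled by number and the grey line marking equal values. Tmem184b lies near the line, Dpys and Plxnb2 run steeper, and Myc (r = -0.17) and Pvt1 (r = 0.36) are scattered.

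Genes of protein synthesis had the highest median r of the 8 lists. Of the 18 listed, 17 passed the filter, and all 17 had r above 0, as did 90.6% of all members. Their median r was 0.75, beside 0.58 over all members. Their list median had the sign of the chromosome in 8 tumours, and differed in tumour 07 (0.18 beside -0.03) and tumour 08 (-0.04 beside 0.08). Here and for the other lists, the sign in tumour 07 was not firm. The chromosome median of tumour 07 was 0.02 without tumour 10 in the reference. Eif4b, which helps the ribosome to unwind messenger RNA, had 541 CPM in tumour 06, a median of 732 CPM and 1080.4 CPM in tumour 04 (r = 0.90). Rpl8, a protein of the large ribosomal subunit, ranged from 1097 CPM in tumour 09 to 2082 CPM in tumour 04 (r = 0.76), but was also high in tumour 07 (deviation 0.70), where the chromosome was near 0. Pabpc1, which binds poly(A) tails, ranged from 491 to 699 CPM (r = 0.82).

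The 20 listed genes of general upkeep all passed, and all had r above 0, with a median of 0.67. Over all members, 90.6% had r above 0. Tmbim6, an endoplasmic reticulum protein that restrains cell death, was the strongest, with 1390.3 CPM in tumour 09, a median of 2321 CPM and 2918 CPM in tumour 11. Its sign matched that of the chromosome in 10 of 10 tumours. In tumour 12, 0 of these 20 genes lay above 0 (24.2% of all members), and in tumour 04, 19 did (83.3% of all members). In tumours 07, 08 and 09, 11, 12 and 6 of them lay above 0, and the list median had the sign of the chromosome in 9 tumours. Txn2, mitochondrial thioredoxin (r = 0.43), and Myh9, a non-muscle myosin heavy chain (r = 0.23), followed less closely, and Myh9 was highest in tumour 05 (737 CPM).

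Among genes of chromatin and transcription, 19 of 20 listed passed and 17 had r above 0 (90.6% over all members). Their median r was 0.58, as over all members. Their list median carried the sign of the chromosome in all 10 tumours. Tob2, a regulator of messenger RNA decay, had 60.0 CPM in tumour 12, a median of 71.3 CPM and 139 CPM in tumour 04 (r = 0.86). Kmt2d, a histone H3 lysine methyltransferase, ranged from 68.6 CPM in tumour 09 to 158 CPM in tumour 11 (r = 0.55). Atf4, a transcription factor of the amino acid and stress response, stood apart in tumour 05 with 528 CPM, against 158 to 297 CPM in the other 9 tumours.

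Liver metabolism genes spread more widely. Of 24 listed, 23 passed, 20 had r above 0 (90.6% over all members) and the median r was 0.55 (0.58 over all members). Their list median had the sign of the chromosome in 9 tumours, with 0.41 in tumour 04, 0.40 in tumour 10 and -0.44 in tumour 06. Tumour 05 was the exception, with -0.26 for the list beside 0.18 for the chromosome. Csad, which makes taurine precursors, ranged from 493 CPM in tumour 09 to 1468 CPM in tumour 07 (r = 0.58). Gpd1, glycerol-3-phosphate dehydrogenase, ranged from 365 CPM in tumour 06 to 1373 CPM in tumour 10 (r = 0.39). Slc38a4, an amino acid transporter of hepatocytes, had r = -0.27 and the sign of the chromosome in 6 tumours, with its highest level, 1265 CPM, in tumour 12 and its lowest, 475 CPM, in tumour 06.

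Cell division genes were divided. Of 20 listed, 16 passed, 12 had r above 0 (90.6% over all members) and the median r was 0.30 (0.58 over all members). Ncaph2, a condensin II subunit, followed closely (r = 0.93), with its lowest level in tumour 09 (deviation -0.83), a median of 153 CPM and 179 CPM in tumour 05. Rad21, a cohesin subunit, ranged from 71.5 CPM in tumour 07 to 126 CPM in tumour 08 (r = 0.59). Rangap1, which activates the GTPase Ran, ranged from 129 CPM in tumour 07 to 229 CPM in tumour 10 (r = 0.50). Gtse1, expressed in the G2 and S phases, ran the other way (r = -0.46), with 14.5 CPM in tumour 07, a median of 22.0 CPM and 44.8 CPM in tumour 09. The list median had the sign of the chromosome in 8 tumours. It was -0.06 in tumour 04 and 0.07 in tumour 13, where the chromosome stood at 0.34 and -0.23.

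Secreted proteins and receptors, and immune genes, had the lowest median r of the 8 lists. Of 20 listed genes of the first group 13 passed, and 7 of them had r above 0 (median 0.24). Over all members, 90.6% had r above 0 (median 0.58). The list median of the first group had the sign of the chromosome in 7 tumours. Ly6e, an interferon-induced surface protein gene, was the strongest of the 13. It had 171 CPM in tumour 07, a median of 684 CPM and 1656 CPM in tumour 04 (r = 0.61). C6, a complement component made by hepatocytes, ranged from 74.1 CPM in tumour 09 to 272 CPM in tumour 08 (r = 0.50), and Tmprss6, a hepatocyte protease of iron control, from 385 CPM in tumour 06 to 984 CPM in tumour 04 (r = 0.76). Of 20 listed immune genes only 8 passed, and 3 had r above 0 (median -0.18), also beside 90.6% of all members. Their list median had the sign of the chromosome in 4 tumours. Csf2rb had 3.62 CPM in tumour 05, a median of 8.49 CPM and 24.9 CPM in tumour 09 (r = -0.27). The macrophage markers of other chromosomes summed to 306 CPM in tumour 09, 118 CPM in tumour 05 and 320 CPM in tumour 06, where Csf2rb was 12.0 CPM, and their part in its level was not tested. The other strongest members of the immune list had a positive r. Ly6d, a small surface protein gene, had 209 CPM in tumour 12, a median of 978 CPM and 1326 CPM in tumour 04 (r = 0.59). Dab2, an endocytic adaptor gene, had 3.66 CPM in tumour 12, a median of 19.03 CPM and 69.2 CPM in tumour 10 (r = 0.49).

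Myc itself (chr15:61857227-61862223, plus strand) did not follow its chromosome. Its level was 59.9 CPM in tumour 04, 133 CPM in tumour 05, 93.7 CPM in tumour 06, 58.8 CPM in tumour 07, 82.8 CPM in tumour 08, 87.3 CPM in tumour 09, 82.4 CPM in tumour 10, 67.8 CPM in tumour 11, 80.4 CPM in tumour 12 and 91.1 CPM in tumour 13. Both tumours with a raised chromosome 15 thus held Myc levels below its median of 82.6 CPM. Its r was -0.17, rank 415 of 438. Whether any reads of the human transgene were counted as mouse Myc is not known from the table.

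The other members within 2 Mb of Myc did not share 1 pattern. Pvt1, a long non-coding RNA gene that starts 0.03 Mb after the start of Myc, had 6.61 CPM in tumour 08, a median of 9.96 CPM and 22.2 CPM in tumour 05, which was also the highest tumour for Myc. Lratd2 (1.17 Mb before Myc) was lowest in tumour 11 (deviation -0.79) and highest in tumour 04 with 52.3 CPM (r = 0.45), and Cyrib, an inhibitor of Rac signalling (1.94 Mb after), from 8.48 CPM in tumour 06 to 17.0 CPM in tumour 04 (r = 0.55). Of 18 genes listed around Myc, Myc included, 16 passed. The 15 other than Myc had r above 0, as did 90.6% of all members. The median r of the 16 was 0.48, beside 0.58 over all members. The list median had the sign of the chromosome in 7 tumours, and differed in tumour 07 (0.04 beside -0.03), tumour 10 (-0.01 beside 0.13) and tumour 11 (-0.06 beside 0.22). In tumour 09 it was -0.05, beside -0.28 for the chromosome. The sterol synthesis enzyme Sqle was highest in tumour 04 (365 CPM, deviation 1.07), and the complex I subunit Ndufb9 followed with r = 0.85. Ndrg1, a stress- and hypoxia-responsive gene, ranged from 51.9 CPM in tumour 12 to 1789.5 CPM in tumour 05, a 34.5-fold range that the chromosome median, at most 0.62 log2 units wide, does not show.

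Because these tumours carry a MYC transgene and MYC with MAX binds the letters CACGTG (the same on both strands), the 250 bases before the start of members were searched for them in RefSeq promoters (GRCm39). Such a window was found for 231 of 438 members, too few to read a share from. The 6 letters occurred in 16 of the 231 (6.93%), in 8.85% of 7616 genes of other chromosomes that pass the filter and in 6.04% of 27026 promoters in all. The 3 windows with them whose genes followed the chromosome best are shown with the match in capitals, 5′ to 3′ on the gene's strand, as examples of the sequence searched. They belong to Rrp7a of ribosome production (chr15:83007003-83007252, minus strand, r = 0.90), Dazap2 (chr15:100513293-100513542, plus strand, r = 0.77) and the transcription factor gene Atf7 (chr15:102533900-102534149, minus strand, r = 0.77).
Rrp7a: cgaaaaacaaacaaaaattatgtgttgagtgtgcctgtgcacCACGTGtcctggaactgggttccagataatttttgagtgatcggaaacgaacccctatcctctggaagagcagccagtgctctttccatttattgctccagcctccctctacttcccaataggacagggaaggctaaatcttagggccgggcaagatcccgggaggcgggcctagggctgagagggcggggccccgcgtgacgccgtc
Dazap2: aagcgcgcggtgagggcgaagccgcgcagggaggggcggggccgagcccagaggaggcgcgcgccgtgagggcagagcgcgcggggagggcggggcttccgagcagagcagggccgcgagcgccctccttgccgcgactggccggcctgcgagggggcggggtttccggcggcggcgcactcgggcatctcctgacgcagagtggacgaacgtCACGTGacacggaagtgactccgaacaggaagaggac
Atf7: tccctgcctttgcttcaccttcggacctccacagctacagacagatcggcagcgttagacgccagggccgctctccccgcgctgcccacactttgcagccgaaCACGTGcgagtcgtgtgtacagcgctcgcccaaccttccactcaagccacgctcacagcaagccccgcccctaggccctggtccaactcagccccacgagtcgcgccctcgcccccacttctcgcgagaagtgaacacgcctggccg
A match to these letters is a description and not a binding site. The levels of these 3 genes were 25.5 to 56.4 CPM for Rrp7a, 108 to 212 CPM for Dazap2 and 34.1 to 63.5 CPM for Atf7, with the lowest value in tumour 12, tumour 12 and tumour 06.

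A small set of members had r below 0. The lowest r, -0.64, was that of Pop1, a protein of the RNase P and RNase MRP complexes (chr15:34495449-34530794, plus strand). It had 4.31 CPM in tumour 05, a median of 7.59 CPM and 9.39 CPM in tumour 09. C9, the last component of the complement membrane attack complex (r = -0.46), had 2 counts in tumour 05 and 25.9 CPM in tumour 08, with a median of 3.80 CPM. The pseudogene Tcea1-ps1 (r = -0.45) and Gm3362 (r = -0.44) completed the lowest 5 with Gtse1. Selenop, the hepatic selenium carrier and the strongest member, also had a negative r (-0.27), with 3099.5 CPM in tumour 13 and 5007 CPM in tumour 09.

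The members that varied most did so well beyond the chromosome. Adcy8, an adenylate cyclase, had 0 counts in tumour 12, where 3 counts are 0.0979 CPM, a median of 5.48 CPM and 20.7 CPM in tumour 04. Adm2, a peptide hormone gene, ranged from 0.131 CPM in tumour 12 to 58.7 CPM in tumour 05. Apol9a, an interferon-responsive apolipoprotein L gene, was at 0.513 CPM in tumour 07 and at 114 CPM in tumour 11. Reads can be shared with its near-identical neighbour Apol9b. Fbln1, an extracellular matrix gene, ranged from 1.40 CPM in tumour 12 to 155 CPM in tumour 10. The stromal markers of other chromosomes summed to 237 CPM in tumour 12 and 373 CPM in tumour 10, and to 2015 CPM in tumour 09, where Fbln1 was 77.3 CPM. Their part in the level of Fbln1 was not tested.

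The column names carry a tag whose meaning is not given: RMH4_5b for tumour 04, RMH4_5c for tumours 05 and 06, RMH18_1d for 07 and 08, RMH35_1b for 09 and 10, and RMH35_1c for 11, 12 and 13. If a tag marks a mouse, tumours that share it come from the same animal. Tumours with the same tag often differed in the chromosome 15 median. Tumour 05 stood at 0.18 and tumour 06 at -0.23, tumour 09 at -0.28 and tumour 10 at 0.13, and tumour 11 at 0.22 while tumours 12 and 13 lay at -0.28 and -0.23. The mean absolute difference was 0.32 ± 0.19 (SD) over 6 pairs with the same tag and 0.27 ± 0.18 over 39 other pairs, a ratio of 1.21. For the first part of the tag the ratio was 1.09. As these medians chose the chromosome, no p is given for them.

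Single members were tested between the 3 tag families (tumours 04 to 06, 07 and 08, and 09 to 13) with edgeR's quasi-likelihood F test across all 10534 genes. At an adjusted p under 0.05, 0 of 438 members were called, against a background of 0.019% of all genes (2 genes). At an unadjusted p under 0.05, 61 members were called, against 14.6% of all genes. DESeq2's likelihood ratio test called 23 of 436 members, against 4.63% of all genes. The count rested on the tool. Both tests treat the tumours as independent. If tumours with the same tag come from 1 mouse, their p-values are too small and the family of tumours 07 and 08 holds a single animal. Leaving out tumour 04 gave 2 members with edgeR (0.457%, against 0.864% of all genes), and leaving out tumour 09 gave 5 (1.14%, against 1.12%).

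The chromosome 15 median was set against 5 measures taken from other chromosomes or from the libraries, over the 10 tumours. Because the median is what chose the chromosome, the correlations are descriptions and no p is given. Tumours 06, 09, 12 and 13 had the 4 lowest medians with TMM. They held the 4 highest mean log2 CPM values of 19 known MYC-induced genes off chromosome 15, among them Ncl, Npm1 and Odc1. That score ranged from 6.01 in tumour 08 to 6.72 in tumour 06, and its r with the chromosome was -0.73 (Spearman's rho -0.72), with r = -0.73 without tumours 06 and 12, the farthest from the median score. The order was different for the summed level of the same genes, which was 3930 CPM in tumour 06, 3376 CPM in tumour 05, 3364 CPM in tumour 09, 2904 CPM in tumour 13 and 2753 CPM in tumour 12.

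For 19 proliferation genes off chromosome 15, r was -0.58 and rho -0.62, and r was -0.84 without tumours 08 and 05. The mean of the macrophage, lymphocyte, endothelial and stromal lists gave r = -0.28 and rho -0.30, and r = 0.01 without tumours 09 and 07. Blood genes gave r = -0.05 and rho 0.18, and r = 0.61 without tumours 07 and 09. The log10 library total gave r = -0.42 and rho -0.27, and r = 0.13 without tumours 13 and 12. For the last 3 measures the sign or size thus rested on a pair of tumours. The tag families hold 3, 2 and 5 tumours, too few for values within them.

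**Figure D5:**
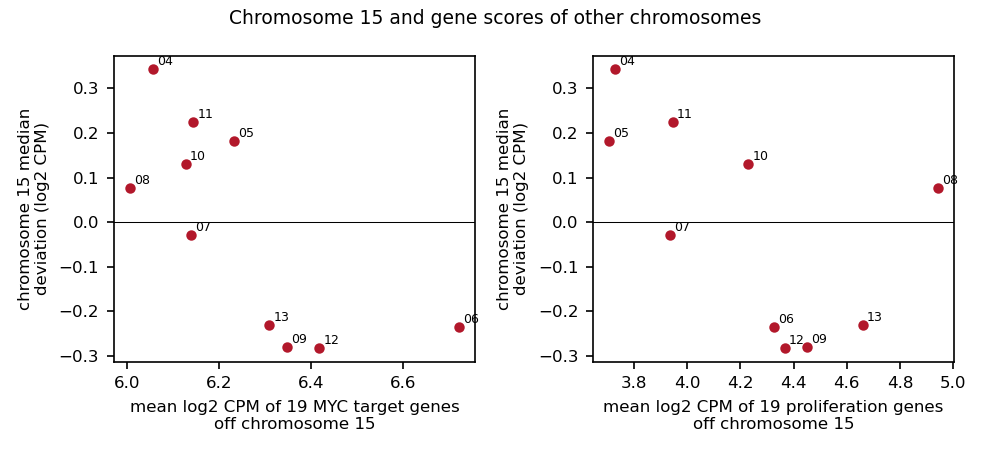
Chromosome 15 median deviation (log2 CPM) of the 10 tumours against the mean log2 CPM of 19 MYC target genes (left, r = -0.73) and of 19 proliferation genes (right, r = -0.58), all off chromosome 15. The 4 tumours with a low chromosome 15 (06, 09, 12 and 13) hold the 4 highest MYC target scores.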

How the data were processed

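Polyadenylated RNA was sequenced from stranded mRNA libraries. The authors deposited 1 table of unnormalised read counts per gene with 19 columns and 5 summary lines of the kind HTSeq writes, which were left out of all totals. The submitters' processing notes name TopHat2, HTSeq and GRCm38 without versions, while the study's methods name another aligner and counter. Whether strand was used in counting is not given in the sources used here. Columns were matched to tumours 04 to 13 by number, and 9 columns were not used. Positions came from GENCODE M39 (GRCm39) by gene identifier, which 34199 of 39179 identifiers carry. CPM was computed from the column sums over genes. For log2 CPM, TMM factors came from edgeR 4.0.16 (R 4.3.3, limma 3.58.1) with a prior count of 2. DESeq2 1.42.0 served as an alternative, and correlations were computed in numpy 2.4.6 and scipy 1.17.1. Permutation tests planned for the chromosome medians are not reported, since those medians chose the chromosome. Scripts were tested on simulated data. The members and gene lists were chosen with earlier results of these data known. Genes were named as Myc and members within 2 Mb, the 3 strongest of each list, the 5 highest and 5 lowest r, the 5 largest SDs, both ends, and the members beside the filter's limit. Rrp7a, Dazap2, Atf7 and the genes of the closing section were named after their values were seen. Intervals and count floors cover counting error only.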

Additional observations from a re-analysis of the deposited data

Results flagged for a closer look

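In each group of values over the 10 tumours, the distance of the most extreme tumour to its nearest neighbour was compared with the whole range by Dixon's test. Of 55 measures examined, 3 had a tumour set apart. They are given as descriptions, because members share the shift of their chromosome and some, Fbln1 among them, were named for their large spread. The rule sets apart a tumour in about 1 of 20 unselected groups by chance. Ly6d, which encodes a small surface protein, was set apart by its low level in tumour 12, at 7.71 log2 CPM where the next tumour had 9.36, a gap of 0.618 of the range. Atf4 was set apart by its high level in tumour 05, at 9.08 log2 CPM where the next had 8.22, a gap of 0.488 of the range. Fbln1 was set apart by its low level in tumour 12, at 0.60 log2 CPM where the next had 3.97, a gap of 0.506 of the range.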

How the results depend on the processing

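The chromosome 15 median of each tumour moved by less than 1 SD over tumours (0.23) under 200 of 200 recalculations. That SD is made by the shifts themselves and is wider than the 0.2 limit, so this is a loose bound. Called at 0.2 the shifts are less firm. Without TMM the median was -0.11 in tumour 09, -0.13 in tumour 13, 0.20 (0.197) in tumour 11 and -0.15 in tumour 07. The sign in tumour 07 (-0.03) also turned, with 0.02 without tumour 10 in the reference. With 1 tumour left out of the reference, tumour 11 ranged from 0.18 (without tumour 09) to 0.27, tumour 13 from -0.27 to -0.17 (without tumour 04) and tumour 05 from 0.14 to 0.22. With only tumours of another tag as reference, tumour 11 was at 0.18. At a threshold of 0.3, 1 tumour was raised and 0 lowered. With a smaller fold of 5/4 in place of 1.5, the share of members past it in the tumour's direction was 52.7%, 37.4%, 42.2%, 23.7%, 20.1%, 45.4%, 26.7%, 38.1%, 45.4% and 38.8% for tumours 04 to 13, against 19.01%, 28.1%, 18.7%, 25.8%, 15.3%, 21.8%, 15.9%, 19.7%, 21.6% and 19.6% of all genes. Between tag families, the members called were 23 with DESeq2, 2 with no filter and 0 to 5 with 1 tumour left out, and over all genes 485 with DESeq2, 1 with filterByExpr, 27 with no filter and 0 to 118 with 1 tumour left out (91 without tumour 04, 118 without tumour 09). The correlation with MYC targets was -0.71 with DESeq2 size factors, and that with proliferation genes -0.84 without tumours 08 and 05. The same-tag ratio ranged from 0.889 to 1.40 with 1 tumour left out. The causes were not tested. Depth limits the members with under 3 counts in some tumour, 2 of 438. No paired analysis was possible because all 10 matched columns belong to 1 group, the tumours.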

Other observations

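The members with the smallest p between tag families, named after their values were seen, included a clock-output gene and a keratin pair. Tef, a transcription factor with a daily rhythm in liver, stood from -1.54 to -0.50 in tumours 04 to 08 and from 0.50 to 1.99 in tumours 09 to 13, with 24.6 CPM in tumour 06 and 210 CPM in tumour 10 (edgeR quasi-likelihood F test, adjusted p = 0.127). Krt8 and Krt18, the keratins of hepatocytes, deviated by 1.12 and 0.89 in tumour 04, 1.65 and 1.36 in tumour 05, and 1.24 and 0.90 in tumour 06. Their highest levels, 2319 and 2487 CPM, were in tumour 05 and their lowest, 424 and 620 CPM, in tumour 12 (edgeR quasi-likelihood F test, adjusted p = 0.127 for each). With all 10 tumours and the filter at a mean of 5 CPM, none of these 3 passed the adjusted threshold in edgeR, but all 3 did in DESeq2's likelihood ratio test (adjusted p = 2.62e-07 for Tef, 4.54e-06 for Krt8 and 1.24e-05 for Krt18). Without tumour 09, edgeR's adjusted p was 0.0325 for Tef, 0.0485 for Krt8 and 0.0536 for Krt18. Without tumour 05 it rose to 0.277, 0.407 and 0.441. With no filter on low values it was 0.0364 for Tef, 0.0655 for Krt8 and 0.0803 for Krt18. Both tests treat tumours that share a tag as independent. The time of day at which tumours were taken is not given in the sources used here.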
